A study of Homo sapiens with 12 samples.

Results

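Small nucleolar RNA (snoRNA) and small nuclear RNA (snRNA) genes were followed through PAR-CLIP libraries of the translation initiation factor eIF3 in Jurkat cells. The genes were every row of the 20 deposited cluster lists whose gene type was snoRNA or snRNA, or whose name began with SNORD, SNORA, SCARNA or RNU or was ACEA_U3. This gave 65 of the 6036 genes listed in any library. Of these, 20 had the gene type snoRNA, 44 had the gene type snRNA, and SNORA76C entered by its name only. Presence in a cluster list is itself a measurement, so counts of listed genes describe the choice and are given without a test. A gene is listed in a library when it holds at least 1 called cluster, and the fewest reads of any listed gene was 7 in every library. Just inside that limit stood SNORD86, with 7 reads in a single library, and a gene with fewer reads than that is not seen. A cluster also needs T-to-C conversions, described below, so no cluster does not mean no reads.

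PAR-CLIP crosslinks RNA labelled with 4-thiouridine to protein by long-wave UV light, recovers the protein with its RNA, and reads the crosslinked positions as T-to-C conversions in the sequenced cDNA. eIF3 is the multisubunit complex that recruits the small ribosomal subunit to mRNA, and it was recovered here with an antibody to EIF3B. The crosslinked complex was run on a gel and cut into 5 bands, named after the subunits found in them by mass spectrometry: EIF3A/C/B, EIF3B/C, EIF3D/L, EIF3F/E, EIF3G/E/F. The comparison asked which RNAs eIF3 contacts when a T cell is activated.

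Activated cells were Jurkat Clone E6-1, a single clone of a human T cell leukemia line, given 50 µM 4-thiouridine for 7 h and then PMA and ionomycin for 5 h with the label still present. Non-activated cells had the same label and no stimulation. Both were crosslinked at 365 nm with 0.2 J per square centimetre. Each band had 2 activated and 2 non-activated libraries, 20 in all, and RNA-seq was made from 2 activated and 2 non-activated samples. The replicates are called biological in the study's methods, which do not say whether they were separate cultures, so p-values measure the spread between these libraries. The deposited samples each hold 2 or 3 bands, so bands of 1 replicate may share their cells, which the tests among bands do not allow for. The T cell genes CD3D and LCK had mean TPM values of 39.1 and 10.5 in activated cells and 161 and 67.1 in non-activated cells. Of the markers of other cell types, the B cell gene CD79A stood at 0.565 TPM in activated cells and 4.82 in non-activated cells, where the T cell gene CD28 stood at 4.32. The myeloid gene CSF1R stood at 0.0687 and 0.196, and the B cell gene MS4A1, the myeloid gene CD14 and the epithelial gene EPCAM stayed below 0.1 in both states.

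Depth differed between the states and sets what could be listed. Uniquely aligned reads ranged from 130768 to 1163754 in activated libraries and from 83846 to 298205 in non-activated libraries. The minimum of 7 reads was therefore worth 6.10 and 6.02 RPM, reads per 1000000 uniquely aligned reads, in the activated EIF3A/C/B libraries, against 83.0 and 83.5 in the non-activated ones. In EIF3B/C it was worth 7.65 and 7.72 in activated cells, against 36.5 and 23.5 in non-activated cells. In the other 3 bands it lay between 28.0 and 53.5 in activated libraries and between 37.3 and 76.2 in non-activated libraries. The mRNA share of reads also differed, most in EIF3D/L, with 49.2% and 49.3% in activated cells against 12.6% and 12.5% in non-activated cells. The non-activated replicates of EIF3A/C/B and of EIF3G/E/F differed by no more than sampling noise, with a chi-square per degree of freedom of 0.337 and 0.911 over RNA classes and of 1.15 and 0.960 over genes. Those of EIF3F/E stood at 0.883 over classes but at 2.52 over genes, and were taken to differ. The alike pairs were kept as separate libraries, and counting each as 1 sample ended the gene calls of SNORD26 and SNORD12C in EIF3G/E/F, given below, and of RNU2-59P in EIF3A/C/B, at an edgeR adjusted p of 0.054.

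Small nuclear RNAs are the RNA cores of the spliceosome. U1, U2, U4 and U5 act on most introns, U11, U12 and U4atac on the rare minor introns, and U7 in the cleavage of histone pre-mRNA. Sm-class snRNAs pass through the cytoplasm, where Sm proteins load onto a uridine-rich site, before they return to the nucleus. Box C/D snoRNAs guide ribose methylation of ribosomal RNA and box H/ACA snoRNAs guide pseudouridylation. Most are cut from introns of host genes, while U3, an abundant box C/D RNA needed to process small-subunit ribosomal RNA, has genes of its own.

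The sequences of 3 snRNAs that moved with the state below are shown from the hg38 genome, with the uridine-rich Sm-type match ATTTTTG or ATTTTTTG in capitals. RNU4-1 lies at chr12:120293097-120293237 on the minus strand. U11, annotated as RNU11, lies at chr1:28648600-28648733 and RNU4ATAC at chr2:121530881-121531007, both on the plus strand.
RNU4-1: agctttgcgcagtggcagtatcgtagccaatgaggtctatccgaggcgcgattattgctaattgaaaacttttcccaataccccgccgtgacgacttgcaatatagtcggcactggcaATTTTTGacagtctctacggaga
U11: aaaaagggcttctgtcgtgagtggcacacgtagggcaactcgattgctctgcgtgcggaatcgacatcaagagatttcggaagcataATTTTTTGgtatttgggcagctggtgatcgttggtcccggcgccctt
RNU4ATAC: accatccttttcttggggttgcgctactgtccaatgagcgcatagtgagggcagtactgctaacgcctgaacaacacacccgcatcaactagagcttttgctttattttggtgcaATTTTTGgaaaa

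A U3 gene and the 3 box C/D snoRNAs called lower in activated cells are shown in the same way, with the first TGATGA (the C box) and the last CTGA (the D box) in capitals. SNORD3D, the U3 gene, lies at chr17:19112419-19112636 on the minus strand and SNORD12C at chr20:49278940-49279028 on the plus strand. SNORD14E lies at chr11:123058077-123058161 and SNORD26 at chr11:62855292-62855366, both on the minus strand. No TGATGA stands in SNORD26.
SNORD3D: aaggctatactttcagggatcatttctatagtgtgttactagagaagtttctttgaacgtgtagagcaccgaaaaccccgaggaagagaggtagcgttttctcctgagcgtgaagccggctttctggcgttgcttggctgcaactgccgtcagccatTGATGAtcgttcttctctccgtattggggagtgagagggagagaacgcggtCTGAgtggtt
SNORD14E: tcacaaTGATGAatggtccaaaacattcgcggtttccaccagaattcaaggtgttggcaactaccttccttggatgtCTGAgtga
SNORD26: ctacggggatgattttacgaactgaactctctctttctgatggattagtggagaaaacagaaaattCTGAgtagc
SNORD12C: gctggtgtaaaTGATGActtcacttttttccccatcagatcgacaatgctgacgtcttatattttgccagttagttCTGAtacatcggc

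The U7 gene and a pseudogene copy of it are shown because their T-to-C fractions differed. Capitals mark the bases that differ, 6 aligned positions including 1 gap, at an identity of 90.5%. RNU7-1 lies at chr12:6943816-6943878 and RNU7-3P at chr6:149516956-149517017, both on the plus strand.
RNU7-1: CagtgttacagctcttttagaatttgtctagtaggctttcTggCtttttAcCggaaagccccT
RNU7-3P: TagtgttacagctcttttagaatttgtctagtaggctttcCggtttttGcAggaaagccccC

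Of the 65 genes, 63 were found in the GENCODE v44 annotation, and ACEA_U3 and U12 were not placed. Both boxes, TGATGA and CTGA on the gene's own strand, stood in 12 of 20 snoRNA genes (60%), against 33.1% of all 942 annotated snoRNA genes. The Sm-type match stood in 22 of 43 snRNA genes (51.2%), against 7.42% of all 1901 annotated snRNA genes. The family make-up of the annotated genes was not matched to that of the listed ones. RNU6-1, of the U6 family that has no listed gene, holds no Sm-type match. A match is a description of letters and not of a bound protein.

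Many of these RNAs exist in near-identical copies, and only uniquely aligned reads were kept. RNU4-1 and RNU4-2 were 97.2% identical, with 4 differences over 141 bases. Stretches of 20 bases that occur once in hg38 made up 19.7% of RNU4-1, 9.55% of SNORD3D and 2.91% of RNU2-2P. The median was 96.7% over the box C/D genes other than U3. The main copies RNU1-1, RNU2-1 and SNORD3A hold 0 such stretches and are not listed in any library. Values of U1, U2, U3, U4 and U5 genes are therefore those of the copies that reads could be placed on, and reads of a family cannot be told apart with certainty.

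By family, 15 genes were U2, 9 U1, 8 U5, 5 U4, 3 U7, 4 minor spliceosome, 2 U3, 16 other box C/D and 3 box H/ACA. No U6 and no scaRNA gene was listed. Over all libraries 17902 cluster reads fell on these genes, and the U3 genes held 34.8% of them, U5 27.4%, U2 11.1%, the minor spliceosome 9.14%, U4 7.42%, U1 4.09%, box C/D 2.95%, U7 2.68% and box H/ACA 0.441%. The top 4 genes held 56.8%. Outside the 20 genes with the most RPM, the remaining genes held between 7 (SNORD86) and 285 (RNU2-72P) reads each over all libraries. These are sums of reads, not divided by length.

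The genes were listed in both states in 26 cases, in activated cells only in 25 (38.5%) and in non-activated cells only in 14 (21.5%). Of all listed genes, 78.5% were found in activated cells only and 0.746% in non-activated cells only. The families differed in these counts. Box C/D genes other than U3 were listed in non-activated cells only in 11 of 16 cases, in activated cells only in 1 and in both in 4. U1 genes were listed in activated cells only in 8 of 9 cases, near the share of all listed genes, and U2 genes in 7 of 15. In each band the minimum of 7 reads was worth fewer RPM in activated libraries, which favours listing there. None of the 65 was listed in all 20 libraries, 48 were listed in both replicates of some band and state, and 12 in a single library.

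In EIF3A/C/B, 35 and 40 of the genes were listed in activated cells against 5 and 6 in non-activated cells, and in EIF3B/C 36 and 36 against 18 and 31. In EIF3D/L the numbers were 13 and 18 in activated cells against 8 and 9 in non-activated cells, and in EIF3F/E 9 and 7 against 6 and 7. For EIF3G/E/F they were 11 and 13 against 14 and 12. Set against all cluster reads of a library, the genes took 1.19% and 1.22% in activated EIF3A/C/B, against 2.85% and 4.46% in non-activated cells. Their share was highest in EIF3G/E/F, with 7.72% and 8.14% in activated cells against 16.3% and 14.6% in non-activated cells.

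**Figure D1:**
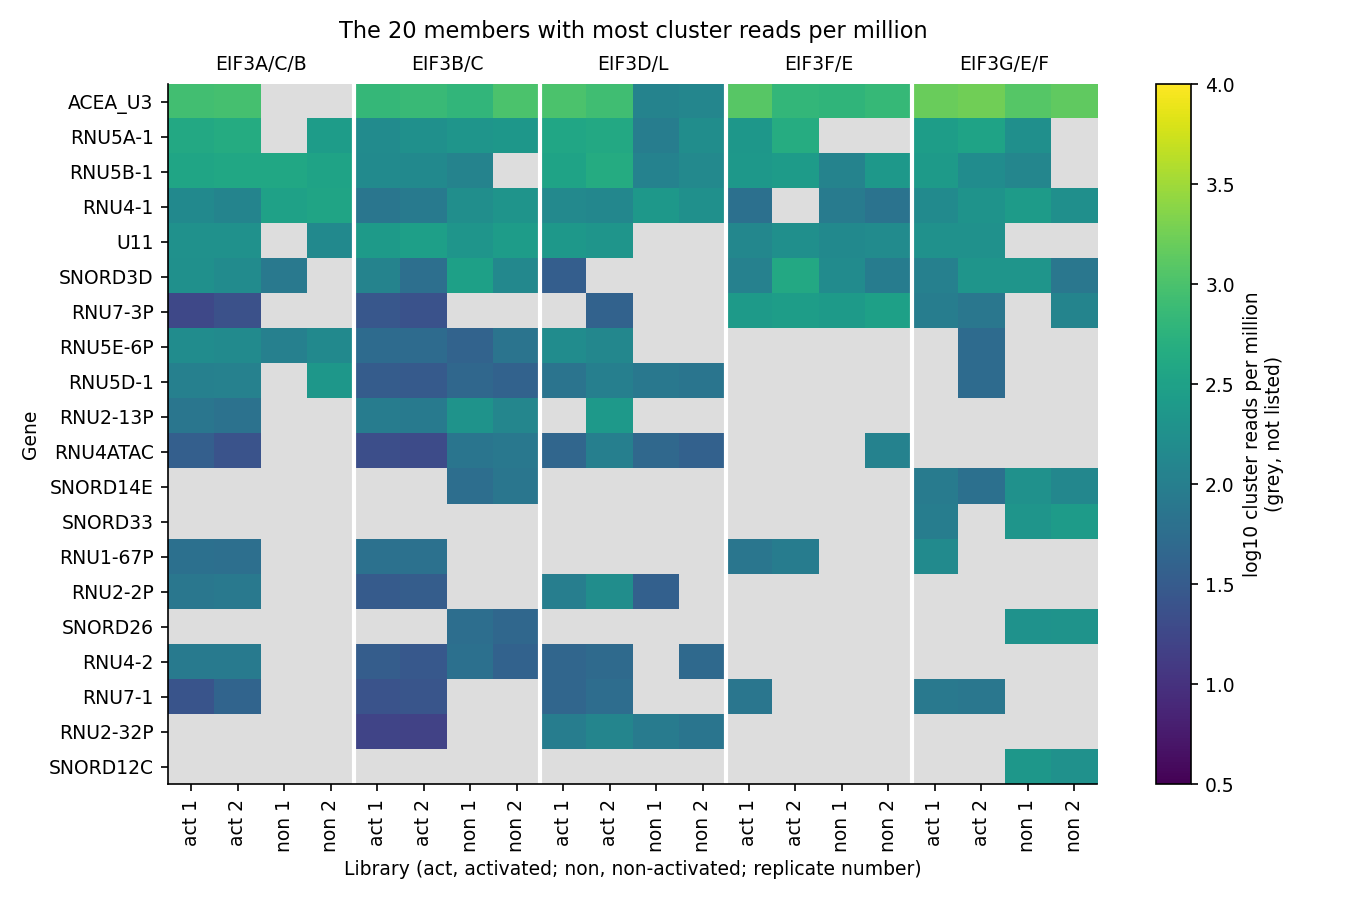
Cluster RPM (log10 colour scale) of the 20 snoRNA and snRNA genes with the largest sum over libraries, in rows, for each of the 20 libraries, in columns, grouped by band with activated libraries left of non-activated ones. Grey marks a gene with no called cluster. ACEA_U3 is listed in 18 libraries and RNU4-1 in 19, while SNORD26 and SNORD12C are listed in non-activated libraries only.

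The deposited statistics also count all uniquely aligned reads of the snoRNA and snRNA classes, inside and outside clusters, so they do not depend on the cluster minimum. snoRNA reads were fewer in activated than in non-activated cells in EIF3B/C and EIF3G/E/F by the widest margin. In EIF3B/C the class took 1165 and 1163 RPM in activated cells, against 3126 and 3135 in non-activated cells. For EIF3G/E/F it took 3444 and 3556 in activated cells, against 6802 and 7161 in non-activated cells. The replicates lay close together and the states did not overlap. The edgeR quasi-likelihood test over 42 RNA classes gave a log2 fold change of -1.43 (SE 0.0531, adjusted p = 2e-11) in EIF3B/C and of -0.995 (SE 0.0569, adjusted p = 5.04e-09) in EIF3G/E/F.

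In EIF3A/C/B the snoRNA class took 1254 and 1277 RPM in activated cells, against 1969 and 1789 in non-activated cells, a log2 fold change of -0.57 (SE 0.0677, adjusted p = 6.07e-06 by edgeR). In EIF3F/E it took 1963 and 1867 in activated cells, against 2532 and 2271 in non-activated cells, a change of -0.32 (SE 0.0674, adjusted p = 0.00105). This EIF3F/E call was lost without non-activated replicate 1, at an adjusted p of 0.0543, and its sign turned with other scalings, to 0.08 with DESeq2 and 0.03 with TMM. In EIF3D/L the class took 1423 and 1337 in activated cells, against 895 and 992 in non-activated cells, a change of 0.55 (SE 0.0713, adjusted p = 1.03e-05). The EIF3D/L direction rested on the scaling too, at -0.40 with DESeq2, -0.27 with library sizes that leave out unannotated and ribosomal RNA reads, and 0.08 with TMM. The median log2 fold change over all 42 classes was 0.87 in EIF3D/L, above the snoRNA value, and -0.27 in EIF3F/E, 0.02 in EIF3A/C/B, 0.07 in EIF3B/C and -0.12 in EIF3G/E/F.

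snRNA reads did not follow snoRNA reads in every band. In EIF3A/C/B the snRNA class took 3293 and 3308 RPM in activated cells, against 4542 and 4317 in non-activated cells (log2 fold change -0.42, SE 0.0617, edgeR adjusted p = 4.43e-05). In EIF3B/C it took 1937 and 1917 in activated cells, against 2677 and 2924 in non-activated cells (-0.54, SE 0.0583, adjusted p = 1.89e-06). Both classes were thus lower in activated cells in these bands. In EIF3G/E/F the snRNA class took 2428 and 2654 in activated cells, against 1971 and 1970 in non-activated cells, a log2 fold change of 0.37 (SE 0.0778, adjusted p = 0.00126), opposite in sign to the snoRNA class.

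In EIF3D/L the snRNA class took 3828 and 4068 RPM in activated cells, against 1822 and 1872 in non-activated cells (log2 fold change 1.10, SE 0.065, edgeR adjusted p = 1.76e-09). With DESeq2 this shrank to 0.15, at an adjusted p of 0.0828. In EIF3F/E the class took 1853 and 2135 in activated cells, against 1926 and 2024 in non-activated cells. These ranges overlapped, and the test gave 0.01 (SE 0.0774, adjusted p = 0.945). It passed the threshold with DESeq2 (0.42, adjusted p = 0.000174) and with TMM (0.36, adjusted p = 0.00329), and without activated replicate 2 the value was -0.09.

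Calls were common among RNA classes, which sets the background for both. By the same test the shares of classes called higher and lower in activated cells were 23.8% and 26.2% for EIF3A/C/B, 33.3% and 33.3% for EIF3B/C, 66.7% and 14.3% for EIF3D/L, 11.9% and 35.7% for EIF3F/E, and 19% and 28.6% for EIF3G/E/F.

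**Figure D2:**
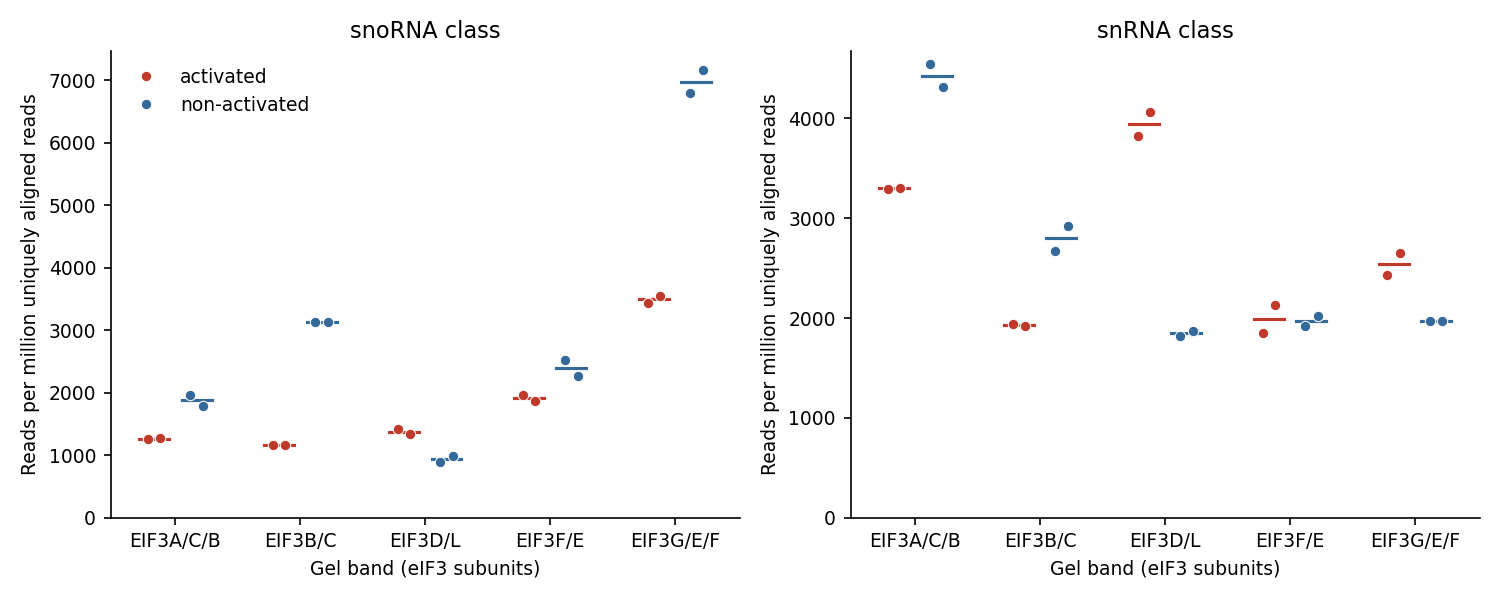
Reads of the snoRNA class (left) and the snRNA class (right) in RPM in each band, one point per library (activated red, non-activated blue) and a bar at the mean of the 2 replicates. The highest snoRNA values are the 6802 and 7161 of non-activated EIF3G/E/F, and the highest snRNA values the 4542 and 4317 of non-activated EIF3A/C/B.

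The bands differed among themselves within each state. In activated cells the snoRNA class was highest in EIF3G/E/F and then EIF3F/E, with EIF3D/L, EIF3A/C/B and EIF3B/C below (edgeR F test over 5 bands, adjusted p = 4.14e-11). Of 10 pairs of bands, EIF3A/C/B against EIF3D/L was the pair that did not pass, with a log2 difference of -0.12 (SE 0.0579, edgeR adjusted p over 10 pairs = 0.0629). In non-activated cells the order of the snoRNA class was EIF3G/E/F, EIF3B/C, EIF3F/E, EIF3A/C/B and EIF3D/L (adjusted p = 4.54e-13), and all 10 pairs passed. The widest gap there was that of EIF3D/L over EIF3G/E/F, at -2.89 on the log2 scale (SE 0.0648).

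The snRNA class had another order. In activated cells it ran from EIF3D/L through EIF3A/C/B and EIF3G/E/F to EIF3F/E and EIF3B/C (edgeR adjusted p = 4.14e-09), with EIF3B/C over EIF3F/E at -0.05 (SE 0.0655, adjusted p over 10 pairs = 0.478). In non-activated cells EIF3A/C/B and then EIF3B/C were highest (adjusted p = 3.84e-09), and the 3 pairs among the EIF3G/E/F, EIF3D/L and EIF3F/E bands did not pass, with adjusted p values between 0.329 and 0.966. Among all 42 classes, 88.1% differed among bands in activated cells and 73.8% in non-activated cells. A band-by-state term tested whether the difference between states was itself different between bands. It gave F = 140 for the snoRNA class (edgeR adjusted p = 1.2e-09) and F = 110 for the snRNA class (adjusted p = 4.82e-09), and 32 of the 42 classes passed this test.

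U3 was the most read of the genes. ACEA_U3 had 1000 and 1085 reads in clusters in activated EIF3A/C/B and no cluster in non-activated cells, where 75.8 reads per library would stand for an equal share (edgeR adjusted p = 0.00238). In EIF3D/L it had 204 and 211 reads in activated cells against 22 and 23 in non-activated cells, a log2 fold change of 2.91 (SE 0.368, adjusted p = 0.00114), and DESeq2 gave 1.00 with an adjusted p of 0.0725. The cluster reads of the states did not overlap in either band. Over all reads, the snoRNA class in EIF3A/C/B was lower in activated cells, at 1254 and 1277 RPM against 1969 and 1789. Of the non-activated snoRNA reads there, 4.22% and 0% lay inside clusters. A rise of U3 over all reads is thus not shown in EIF3A/C/B.

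In EIF3B/C ACEA_U3 had 623 and 678 reads in activated cells against 121 and 300 in non-activated cells, or 681 and 748 RPM against 631 and 1006. In EIF3F/E it had 178 and 91 reads against 68 and 83, or 1217 and 659 RPM against 615 and 709. In EIF3G/E/F it had 215 and 231 reads against 123 and 130, or 1606 and 1766 RPM against 1200 and 1415. None of these 3 passed, with edgeR adjusted p values of 0.562, 0.511 and 0.225. The other U3 gene, SNORD3D, had 209 and 179 reads in activated EIF3A/C/B against 7 and no cluster in non-activated cells (adjusted p = 0.085), and 108 and 55 against 59 and 41 in EIF3B/C, or 118 and 60.7 RPM in activated cells against 308 and 137 in non-activated cells. It passed in no band.

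Among the U5 genes, RNU5A-1 and RNU5B-1 had the most reads. In EIF3A/C/B RNU5B-1 had 420 and 453 reads in activated cells against 32 and 28 in non-activated cells, which is 366 and 389 RPM against 380 and 334. These overlap, and the test gave an adjusted p of 0.673 by edgeR. RNU5A-1 had 472 and 521 reads there against no cluster and 23 reads (adjusted p = 0.227), and RNU5D-1, another U5 variant, had 122 and 129 reads against no cluster and 19 reads (adjusted p = 0.958).

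In EIF3D/L RNU5A-1 had 75 and 102 reads in activated cells against 18 and 29 in non-activated cells (log2 fold change 1.60, SE 0.401, adjusted p = 0.00983 by edgeR). RNU5B-1 had 67 and 114 against 21 and 25 (1.65, SE 0.382, adjusted p = 0.00698). Both changes turned in sign under scalings that follow mRNA, to -0.37 and -0.32 with mRNA reads as library sizes, -0.29 and -0.24 with TMM, and -0.32 and -0.27 with DESeq2. RNU5E-6P, a U5 pseudogene copy, had 32 and 33 reads in activated cells against no cluster (edgeR adjusted p = 0.00114), where 26.4 reads would stand for an equal share. Only the activated libraries let it into the test, and reads outside clusters were not counted.

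RNU4-1, the U4 RNA that pairs with U6 before the spliceosome is activated, fell in activated cells in a pair of bands. In EIF3A/C/B it had 167 and 140 reads in activated cells against 27 and 29 in non-activated cells, which is 145 and 120 RPM against 320 and 346. The log2 fold change was -1.32 (SE 0.163, adjusted p = 0.00441 by edgeR). In EIF3B/C it had 69 and 77 reads against 32 and 61, or 75.4 and 84.9 RPM against 167 and 205, a change of -1.21 (SE 0.249, adjusted p = 0.0294). DESeq2 gave -1.75 and -1.38, with adjusted p values of 0.268 and 0.351. In EIF3D/L the gene had 28 and 33 reads against 44 and 32, in EIF3F/E 9 reads and no cluster against 10 and 8, and in EIF3G/E/F 20 and 26 against 27 and 16. The last 3 did not pass or, in EIF3F/E, were not tested. The near copy RNU4-2 had 102 and 101 reads in activated EIF3A/C/B against no cluster (edgeR adjusted p = 0.00406), where 7.38 reads would stand for an equal share. Only the activated libraries let it into that test, and reads outside clusters were not counted. In EIF3B/C RNU4-2 had 31 and 26 reads against 12 and 12 (edgeR adjusted p = 0.241). This was 33.9 and 28.7 RPM in activated cells against 62.6 and 40.2 in non-activated cells.

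The minor spliceosome RNAs did not move alike in every band. U11, which recognises the start of minor introns, had 46 and 53 reads in activated EIF3D/L against no cluster in non-activated cells, where 40.3 reads would stand for an equal share (edgeR adjusted p = 0.00114). In EIF3G/E/F it had 25 and 24 reads against no cluster, with 18.0 for an equal share (adjusted p = 0.0166). In both bands only the activated libraries let U11 into the test. Reads outside clusters were not counted, so a rise over all reads is not shown. In EIF3B/C U11 had 236 and 269 reads against 41 and 81, or 258 and 297 RPM against 214 and 272, with an edgeR adjusted p of 0.507. RNU4ATAC, the U4atac RNA, had 20 and 18 reads in activated EIF3B/C against 14 and 24 in non-activated cells, or 21.9 and 19.9 RPM against 73.1 and 80.5. Its log2 fold change was -1.87 (SE 0.322, edgeR adjusted p = 0.0235), and DESeq2 gave -2.05 with an adjusted p of 0.18. In EIF3D/L RNU4ATAC had 9 and 26 reads against 9 and 7, a change of 0.77 (SE 0.601, edgeR adjusted p = 0.263). In EIF3A/C/B RNU4ATAC had 41 and 29 reads and U12 44 and 50, both against no cluster. Both were called higher (edgeR adjusted p = 0.0155 and 0.00594), but equal shares would be 2.55 and 3.42 reads, under the minimum of 7.

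Over all genes with at least 20 reads in some library, the edgeR test on cluster reads called 18 of the 31 tested snoRNA and snRNA genes higher in activated EIF3A/C/B and 1 lower, against 77.1% and 0.497% of all genes tested in that band. In EIF3B/C it called 8 higher and 3 lower of 30, against 40.9% and 2.47% of all genes. In EIF3D/L it called 6 higher and 0 lower of 12, against 74.5% and 0.232%. In EIF3F/E it called none of 6, against 2.34% and 1.56%, and 1 gene had an unadjusted p below 0.05. For EIF3G/E/F it called 1 higher and 2 lower of 10, against 30.9% and 5.15%.

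Many of these calls lie where the lists cannot show the other state. Non-activated EIF3A/C/B held a cluster for 0 of the 18 genes called higher there, and for 16 of the 18 an equal share would have given under 7 reads per library there, below what the lists can show. This was so for 4 of the 8 such genes of EIF3B/C. Where an equal share reached 7 reads, reads outside clusters were still not counted, so a rise over all reads is not shown. The split also moved with the scaling. In EIF3B/C mRNA reads as library sizes gave 5 higher and 5 lower, and in EIF3D/L TMM gave 3 and 3 and mRNA reads gave 2 and 3. None of the snoRNA and snRNA genes was called in any of the 5 bands without activated replicate 1 or without activated replicate 2.

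Genes listed in all 4 libraries of a band give a fold change with no library entered as 0. The minimum still decides which genes these are. In EIF3A/C/B it was worth 83.0 and 83.5 RPM in non-activated cells against 6.10 and 6.02 in activated cells. Genes with few reads in non-activated cells are thus left out. The median log2 fold change of the snoRNA and snRNA genes so listed was 0.08 over 3 genes in EIF3A/C/B, against 0.48 over all 112 such genes. It was -0.57 over 10 genes in EIF3B/C, against 0.17 over 566. In EIF3D/L it was 0.77 over 7 genes against 1.91 over 75, in EIF3F/E 0.50 over 5 against 0.15 over 45, and in EIF3G/E/F 0.13 over 3 against 0.41 over 20.

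Pseudogene copies made up much of the U1 and U2 families, with 6 of 9 and 15 of 15 names ending in P. RNU2-13P had 87 and 76 reads in activated EIF3A/C/B against no cluster in non-activated cells, where 5.93 reads would stand for an equal share. In EIF3B/C it had 85 and 76 reads in activated cells against 38 and 38 in non-activated cells, or 92.9 and 83.8 RPM against 198 and 127 (adjusted p = 0.101 by edgeR). In EIF3D/L it had no cluster in the first activated library and 62 reads in the second, against no cluster in non-activated cells, so every read behind its call there (edgeR adjusted p = 0.0484) came from activated replicate 2. RNU1-67P had 72 and 70 reads in EIF3A/C/B libraries of activated cells and 58 and 58 in those of EIF3B/C, against no cluster in any of the 10 non-activated libraries, where an equal share would be 5.16 and 15.6 reads. RNU2-2P, which is expressed despite its name, had 90 and 95 reads in EIF3A/C/B and 29 and 31 in EIF3B/C of activated cells, against no cluster in non-activated cells, where an equal share would be 6.73 and 8.07 reads. RNU2-32P had 19 and 31 reads in activated EIF3D/L against 17 and 13 in non-activated cells.

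RNU7-1, the U7 RNA, was listed in 9 of 10 activated libraries with 9 to 49 reads and in 0 of 10 non-activated libraries. An equal share would there have been 2.84 reads for EIF3A/C/B and 6.32 for EIF3B/C, below the minimum of 7. Its copy RNU7-3P was listed in 9 activated libraries and 3 non-activated ones. In EIF3F/E RNU7-3P had 37 and 39 reads in activated cells against 28 and 36 in non-activated cells, or 253 and 282 RPM against 253 and 307. These were its highest values, and the test of the states gave an adjusted p of 0.896 by edgeR.

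The box C/D genes other than U3 were listed mostly in non-activated cells. They appeared in EIF3B/C and EIF3G/E/F, and apart from SNORD118 not in EIF3A/C/B, EIF3D/L or EIF3F/E. Leaving aside SNORD118 (U8) and SNORD13 (U13), which act in ribosomal RNA processing and maturation, the remaining 14 lie in introns of host genes. Of the 14, 2 and 1 were listed in activated EIF3G/E/F, with 187 and 61.2 RPM in sum, against 9 and 8 in non-activated cells, with 1308 and 1121. In EIF3B/C, 1 and 0 were listed in activated cells, with 7.65 and 0 RPM, against 5 and 9 in non-activated cells, with 256 and 366. In both bands the activated libraries were the deeper ones.

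SNORD26 had no cluster in activated EIF3G/E/F, against 20 and 18 reads in non-activated cells, where 25.9 reads per activated library would stand for an equal share (adjusted p = 0.0166 by edgeR). SNORD12C had no cluster in activated cells, against 23 and 17 reads, with 27.2 for an equal share (adjusted p = 0.0166). Both calls were lost without non-activated replicate 2 (adjusted p = 0.361 for SNORD26 and 0.26 for SNORD12C) and where the alike non-activated replicates were counted as 1 sample (0.376 and 0.321). Without non-activated replicate 1 neither reached the 20 reads needed for a test. In EIF3B/C SNORD26 had no cluster in activated cells, against 11 and 14 reads.

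SNORD14E had no cluster in activated EIF3B/C, against 11 and 22 reads in non-activated cells, where 61.4 reads per activated library would stand for an equal share (edgeR adjusted p = 0.0234). It reached the 20 reads needed for a test only in non-activated replicate 2, so the state where it was high let it into the test. In EIF3G/E/F it had 12 and 8 reads in activated cells against 19 and 12 in non-activated cells. SNORD33 had 13 reads and no cluster in activated EIF3G/E/F against 22 and 24 reads (adjusted p = 0.442). SNORD28 and SNORD105 had no cluster in activated EIF3B/C, against 11 and 18 reads and 8 and 12 reads, and SNORD35A was likewise listed only in the 4 non-activated libraries of the 2 bands, with 7 or 8 reads each. SNORD13 had no cluster and 7 reads in activated EIF3B/C against 17 and 20 (adjusted p = 0.0847). SNORD118 was listed in 4 activated libraries, with 8 to 14 reads, and 1 non-activated library, with 7 reads. Its activated values of 6.87 to 12.2 RPM lie below what 7 reads are worth in the non-activated libraries of those bands.

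**Figure D3:**
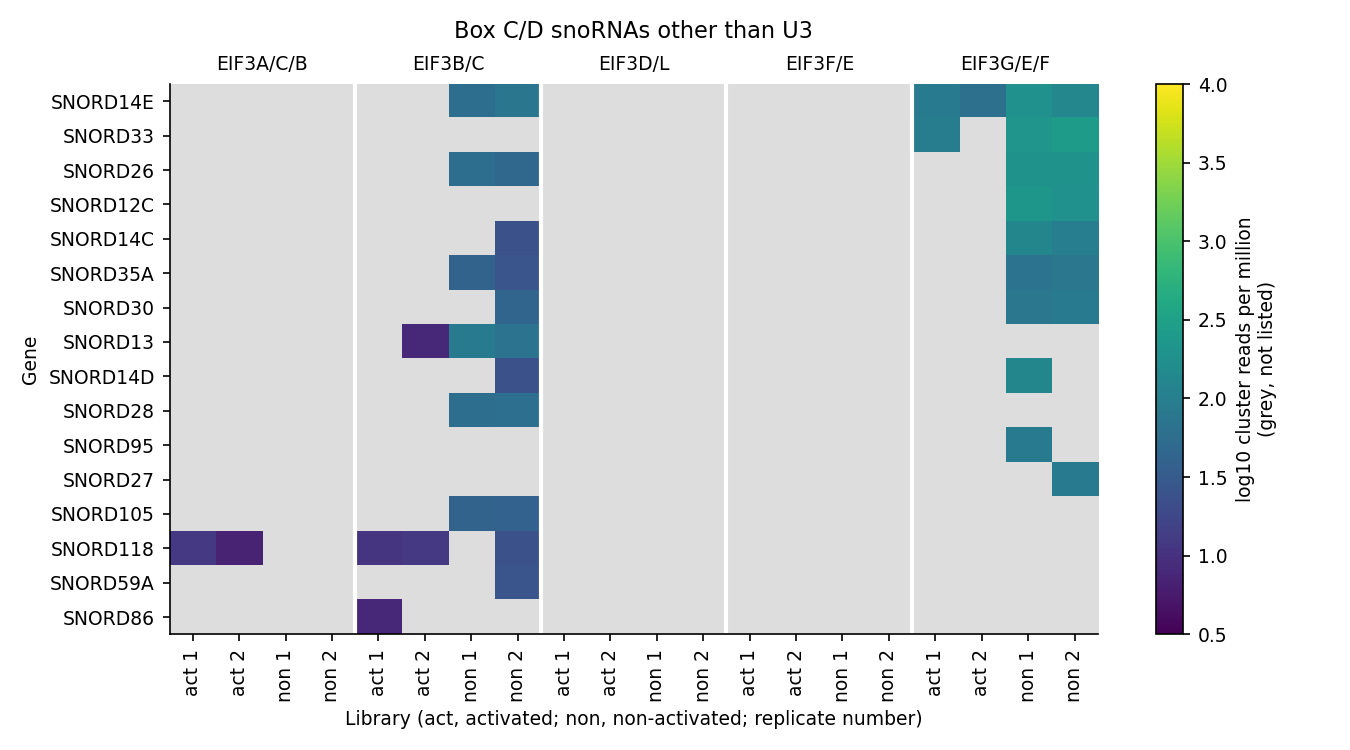
Cluster RPM (log10 colour scale) of the 16 box C/D snoRNA genes other than U3, in rows, for each of the 20 libraries, in columns, with activated libraries left of non-activated ones in each band. Grey marks a gene with no called cluster. The filled cells of EIF3G/E/F lie mostly in the non-activated libraries, where 9 and 8 of the 14 intronic genes are listed against 2 and 1 in activated cells.

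By host gene, HSPA8, which encodes a constitutive chaperone, holds SNORD14C, SNORD14D and SNORD14E, and SNHG1 holds SNORD26, SNORD27, SNORD28 and SNORD30. RPL13A, a ribosomal protein gene, holds SNORD33 and SNORD35A. In EIF3G/E/F HSPA8 itself had no cluster in activated cells, against 14 and 13 reads in non-activated cells. SNHG1 had 8 and 24 reads in activated EIF3B/C against no cluster and 7 reads in non-activated cells (edgeR adjusted p = 0.804). An equal share in non-activated cells would be 4.30 reads, under the minimum. Its SNORD26 and SNORD28 were listed in EIF3B/C in non-activated cells alone. ZFAS1, the host of SNORD12C, had no cluster in activated EIF3B/C against 22 and 26 reads. Host and snoRNA were thus not always listed in the same libraries. Whether reads came from the snoRNA, the host intron or both was not tested.

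The 3 box H/ACA genes had few reads. SNORA76C, annotated as SNORA50C in v44, had 9 reads and no cluster in activated EIF3B/C against 9 and 21 reads in non-activated cells (edgeR adjusted p = 0.14). SNORA67 was listed in 2 activated libraries and SNORA9 in 1 non-activated library.

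The T-to-C fraction is the share of reads that carry the conversion left by a crosslinked 4-thiouridine, and it was lower than that of coding RNA for the snRNA class in each library and for the snoRNA class in most. For the snoRNA class it was 0.73 to 0.82 over the activated libraries, against 0.51 to 0.68 over the non-activated ones, and each band's activated values lay above its non-activated values. In EIF3A/C/B it was 0.75 and 0.75 in activated cells against 0.52 and 0.51 in non-activated cells, and in EIF3G/E/F 0.79 and 0.73 against 0.58 and 0.58. For the snRNA class it was 0.57 to 0.66 in activated cells against 0.45 to 0.60 in non-activated cells, and the states overlapped in EIF3D/L, with 0.59 and 0.57 against 0.56 and 0.60. For coding sequence it was 0.77 to 0.80 against 0.72 to 0.80. The miRNA class was 0.66 and 0.64 in activated EIF3D/L against 0.35 and 0.34 in non-activated cells. It was lower in non-activated cells in every band but EIF3B/C, with 0.67 and 0.67 against 0.72 and 0.74. The median over the well-read RNA classes was 0.69 and 0.695 against 0.48 and 0.48 in EIF3D/L, and 0.735 and 0.70 against 0.70 and 0.71 in EIF3B/C. A lower fraction in non-activated cells was thus not particular to snoRNA.

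With 2 libraries a state an exact permutation test of 1 band cannot go below a two-sided p of 1 in 3, so no test was made. The share of reads inside clusters moved with the state as well. The share of snoRNA class reads inside clusters was 85.4% and 85.6% in activated EIF3A/C/B against 4.22% and 0% in non-activated cells, and that of snRNA reads 70.8% and 72.4% against 19.6% and 34.0%. Their part in the lower class fractions was not tested.

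**Figure D4:**
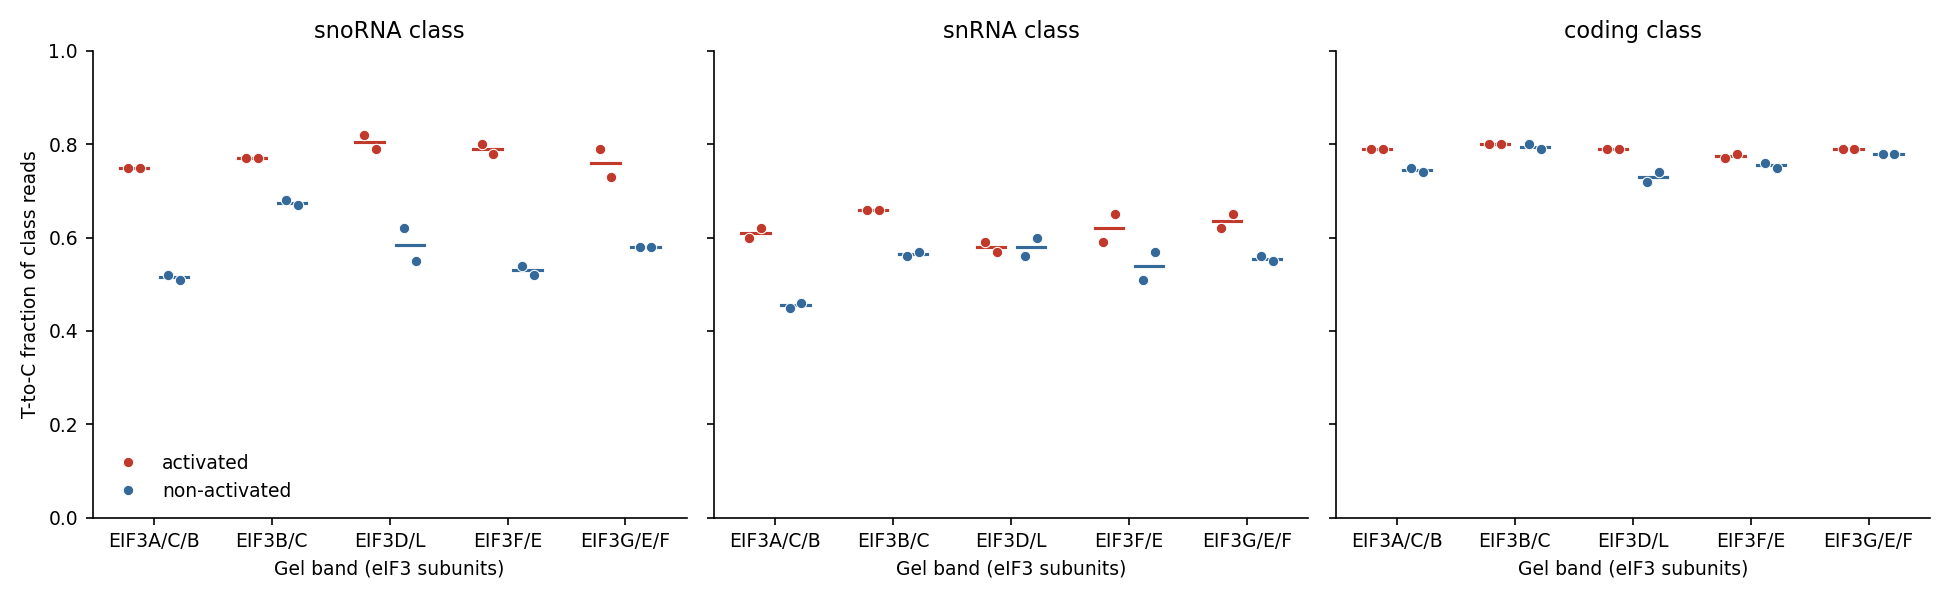
T-to-C fraction of all reads of the snoRNA class, the snRNA class and the coding class in each band, one point per library (activated red, non-activated blue) and a bar at the mean of the 2 replicates. The snoRNA points split by state in each band, at 0.73 to 0.82 against 0.51 to 0.68, while coding RNA stays between 0.72 and 0.80. Other classes that are not drawn, such as miRNA, also moved with the state.

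Within clusters the genes differed widely in this fraction. The median over the listed genes was 0.72 and 0.745 in activated EIF3A/C/B against 0.72 and 0.685 in non-activated cells, below the medians over all listed genes of 0.87 and 0.87 against 0.86 and 0.86. Taken over the libraries in which each was listed, the median was 0.85 for RNU4-1 and for U11 and 0.765 for ACEA_U3. Copies named as pseudogenes spanned the range, with 0.345 for RNU2-72P, 0.42 for RNU2-13P and RNU2-32P and 0.45 for RNU1-67P, and with 0.78 for RNU5A-8P, 0.92 for RNU4-82P, 0.935 for RNU2-70P and 1 for RNU2-37P. RNU7-1 stood at 0.78 and its copy RNU7-3P at 0.47. ACEA_U3 itself spanned 0.73 to 0.88 in activated libraries and 0.18 to 0.80 in non-activated ones. Among box C/D genes SNORD28 and SNORD105 stood at 1 and SNORD26 at 0.58, on 63 reads or fewer each.

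The mRNAs of the proteins that carry these RNAs were read for comparison, as cluster reads in the same edgeR fit. Of the snoRNP proteins and assembly factors, 6 of 7 tested were called higher in activated EIF3A/C/B, 3 of 5 in EIF3B/C and 0 of 1 in EIF3D/L. None of those called had a cluster in non-activated cells, and for 5 of the 6 and 2 of the 3 an equal share would be under 7 reads there, so a rise is not shown for them. GAR1, a core protein of H/ACA particles, had 245 and 254 reads in activated EIF3A/C/B, and FBL (fibrillarin), the C/D methyltransferase, had 74 and 68, both against no cluster in non-activated cells, where equal shares would be 18.1 and 5.16 reads. Of the Sm, LSm and other snRNP proteins, 14 of 17 were called higher in EIF3A/C/B, 1 higher and 1 lower of 14 for EIF3B/C, 4 of 5 higher for EIF3D/L, and 0 of 2 and 0 of 1 in the EIF3F/E and EIF3G/E/F bands. For 10 of the 14 an equal share would be under 7 reads in non-activated cells. SNRPF, an Sm ring protein, had 389 and 408 reads in activated EIF3A/C/B against 10 and 18 in non-activated cells (log2 fold change 1.05, SE 0.281, adjusted p = 0.0257). SNRPD3, another Sm protein, had 24 and 26 reads against 16 and 20 in EIF3B/C (-1.44, SE 0.329, adjusted p = 0.0352). Beside them, 77.1% of all genes tested were called higher in EIF3A/C/B, 40.9% in the EIF3B/C band and 74.5% in the EIF3D/L band.

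Of the SMN complex, which loads Sm proteins onto snRNAs, STRAP alone was tested. It had 64 and 40 reads in activated EIF3B/C against no cluster in non-activated cells, where 13.98 reads would stand for an equal share (edgeR adjusted p = 0.0235). Its 87 and 85 reads in activated EIF3A/C/B against no cluster were called too (adjusted p = 0.00425), but an equal share would be 6.26 reads, under the minimum of 7. Of the snoRNA host genes of the SNHG family, 7 of 8 were called higher in the EIF3A/C/B band, beside 77.1% of all genes, and 1 higher and 2 lower of 7 in the EIF3B/C band, beside 40.9% and 2.47%. Each of the genes called higher had no cluster in non-activated cells and an equal share under 7 reads. SNHG17 had 95 and 90 reads in activated EIF3B/C against 39 and 69 (log2 fold change -1.10, SE 0.213, adjusted p = 0.027) and SNHG5 had 27 and 36 against 33 and 44 (-2.20, SE 0.302, adjusted p = 0.0234). Of 14 other short noncoding RNA genes, RMRP, RPPH1 and VTRNA1-1 were listed in activated libraries and RN7SK in a non-activated one, with at most 17 reads each, and 0 were tested.

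Total RNA levels were deposited as the authors' mean TPM per state, with no value per replicate, so no test was possible. TPM is a share of all transcripts, and transcripts of type miRNA took most of it in activated cells. They took 76.7% of TPM in activated cells and 49.8% in non-activated cells, protein-coding transcripts 1.53% and 9.24%, snoRNA 0.420% and 3.77%, and snRNA 1.64% and 3.54%. Per 1000 TPM of protein-coding RNA, snoRNA stood at 274 in activated cells and 408 in non-activated cells and snRNA at 1073 and 383. The order of the states for snRNA thus turned with what it was measured against.

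Of the 65 genes, 48 were named in the TPM tables and 38 in both. Of the 38, 37 had a lower mean TPM in activated cells. Their median log2 ratio, with 0.1 added to each value, was -1.44, against -1.41 over 8987 protein-coding genes and -0.89 over all 33078 genes. This closeness to protein-coding genes depended on the setting. With 1 added the medians were -1.28 and -0.45, and over genes at 1 TPM or more in either state they were -1.81 and -2.19, where the order turned. The 5 highest were RNU2-2P (1616 TPM in activated cells, 3979 in non-activated cells), RNU4-2 (165 and 1351), RNU4-1 (220 and 1111), RNU5B-1 (124 and 337) and SNORD13 (96.2 and 257). SNORD14E stood at 3.90 TPM in activated cells and 34.6 in non-activated cells, and SNORD12C at 3.84 and 19.7. SNORD35A was the gene that went the other way, at 0.743 and 0.129.

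The levels and the cluster reads did not always rank the genes alike. RNU4-2 had a higher TPM than RNU4-1 in non-activated cells (1351 against 1111). In activated cells RNU4-1 had the higher TPM (220 against 165). Over the libraries of both states RNU4-1 held 855 cluster reads and RNU4-2 315. ACEA_U3, the most read gene in clusters, had a mean TPM of 5.41e-06 in activated cells and 0.0744 in non-activated cells, while SNORD3A, the U3 gene without a unique 20-base stretch, had 2025 and 25002. Which U3 copy the ACEA_U3 reads came from was not tested.

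**Figure D5:**
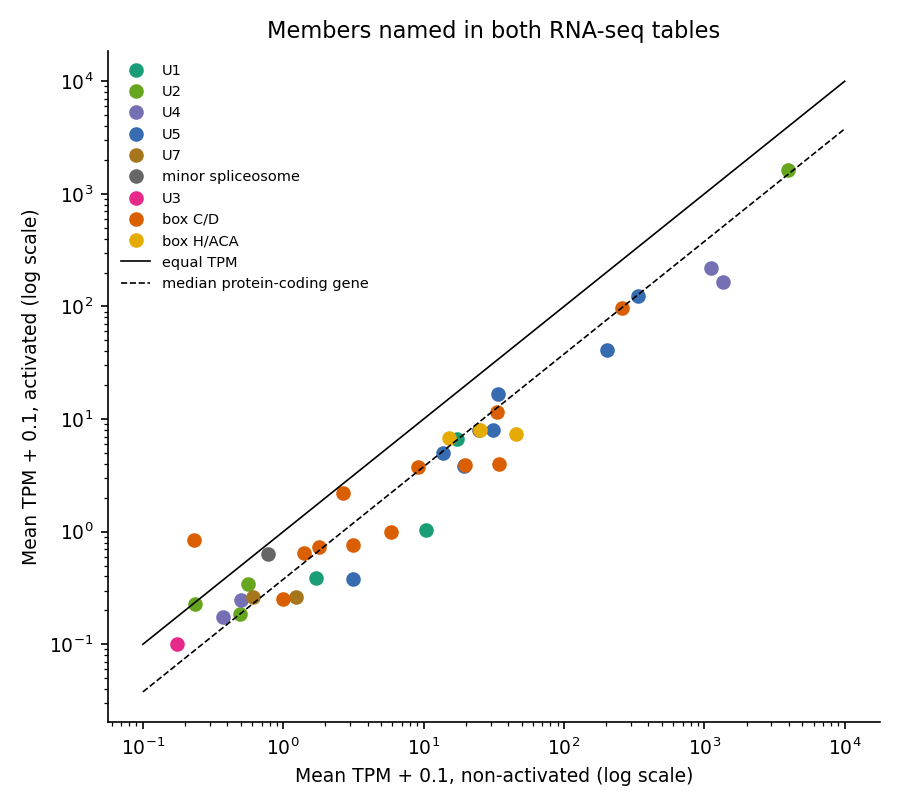
Mean TPM plus 0.1 in activated cells (vertical log axis) against non-activated cells (horizontal log axis) for the 38 snoRNA and snRNA genes named in both tables, coloured by family. The solid line marks equal TPM and the dashed line the median ratio of protein-coding genes. All but SNORD35A lie below the solid line, and they scatter around the dashed one, with a median log2 ratio of -1.44 against -1.41, an order that turns for genes at 1 TPM or more.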

How the data were processed

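The 20 PAR-CLIP libraries were sequenced, collapsed by random barcode, aligned to hg38 and clustered with PARalyzer in PARpipe by the authors, who deposited whole counts of sites and reads per gene in clusters, and the T-to-C fraction of sites as a median per gene. Per library they also deposited counts of uniquely aligned reads per RNA class and the T-to-C fraction of each class. TPM values were estimated by the authors with kallisto and deposited as means of 2 replicates.

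Groups came from the corrected sample labels. Reads per gene (at least 20 in any library of the band) and per class were tested by the quasi-likelihood method of edgeR 4.0.16 under R 4.3.3 (threshold 0.05 after Benjamini-Hochberg adjustment), with uniquely aligned reads as library sizes and a gene without a cluster entered as 0. Fold changes are printed only for genes listed in all 4 libraries of a band. On simulated EIF3A/C/B data the test found 17% of genes changed at a log2 size of 2 and 68% of those at a size of 4. It made 0 false calls there. A simulation of EIF3D/L with 431 genes gave the most false calls, 10. They stood beside 46 of 54 changed genes found at size 2 and 53 of 53 at size 4. False calls numbered 3 on simulated EIF3B/C data, 2 where EIF3F/E was simulated and 1 with simulated EIF3G/E/F reads. DESeq2 1.42.0, TMM, no filter, other library sizes, a replicate block and leaving out each library were alternatives, and counting alike replicates as 1 sample was added after seeing the data. Sequences came from hg38 with GENCODE v44.

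Named genes were the 20 with the largest sum of RPM, up to 5 called each way per band among those listed in all 4 libraries, the 5 with the highest TPM, and the 2 to 4 most read of each list. Other genes named were chosen after their values were seen. The genes, lists and tests were chosen with earlier results of these data known.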

Additional observations from a re-analysis of the deposited data

Results flagged for a closer look

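The difference between activated and non-activated cells was itself different between the 5 bands for the snoRNA class (band-by-state term, edgeR adjusted p = 1.2e-09). Its log2 fold change was -0.57 for EIF3A/C/B, -1.43 for EIF3B/C, 0.55 for EIF3D/L, -0.32 for EIF3F/E and -0.995 for EIF3G/E/F.

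The same held for the snRNA class (adjusted p = 4.82e-09), with log2 fold changes of -0.42, -0.54, 1.10, 0.01 and 0.37 in the same order of bands. The bands differ in the mRNA share of their reads, and its part in these differences was not tested.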

How the results depend on the processing

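The number of called genes depended on the processing more than the class results did. Of the class values under alternatives, 126 kept their direction and their side of the threshold, 3 lost the call, 2 gained it and 7 turned. DESeq2 called 1 of the snoRNA and snRNA genes for EIF3A/C/B, 3 for EIF3B/C, 3 for EIF3D/L and 1 for EIF3F/E. Without a filter on low counts 17 were called in EIF3B/C and 7 in EIF3G/E/F. Leaving out 1 library gave 0 to 20 calls in EIF3A/C/B, 0 to 19 in EIF3B/C, 0 to 7 in EIF3D/L, 0 to 1 in EIF3F/E and 0 to 3 in EIF3G/E/F. Counting the alike non-activated replicates as 1 sample, chosen after seeing the data, gave 21 in EIF3A/C/B and 2 in EIF3G/E/F.

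The snoRNA class in EIF3D/L turned to -0.40 with DESeq2 and to -0.27 without unannotated and ribosomal RNA reads, and stood at 0.080 with TMM, against 0.47 to 0.62 when 1 library was left out. In EIF3F/E it turned to 0.083 with DESeq2 and 0.026 with TMM, and ranged from -0.40 to -0.25 without 1 library. The snRNA class stood at 0.15 in EIF3D/L with DESeq2, and in EIF3F/E at 0.42 with DESeq2, 0.36 with TMM and -0.092 to 0.11 without 1 library. RNU5A-1 in EIF3D/L turned to -0.32 with DESeq2, -0.29 with TMM and -0.37 with mRNA reads as library sizes, and RNU5B-1 to -0.27, -0.24 and -0.32. The cause of these turns was not tested.

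The replicate numbers did not pair the libraries. Their deviations over RNA classes correlated at 0.22, -0.38, 0.12, 0.02 and -0.07 in the 5 bands. With the replicate number as a block 0 genes were called in each of the 5 bands, and the snRNA class in EIF3F/E stood at -0.0021.

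The median log2 TPM ratio was -1.28 with 1 added to each value, against -0.45 over protein-coding genes, and -1.81 over the 28 genes at 1 TPM or more in either state, against -2.19 over protein-coding genes. Depth limits the non-activated EIF3A/C/B libraries most, where a gene below 83.0 RPM cannot be listed.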
